A study of Mus musculus with 8 samples.

Results

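The colon is lined by a single layer of epithelium that faces a dense bacterial community and holds it back with secreted and membrane-bound proteins. The 10 genes described here encode such proteins in the mouse: the regenerating-islet-derived lectins Reg3b, Reg3g and Reg4, the goblet cell product Retnlb, the microbicidal ribonuclease Ang4, the flagella-binding surface protein Lypd8, the siderophore-binding lipocalin Lcn2, the oxidase Duox2, the inducible nitric oxide synthase Nos2 and the immunoglobulin transporter Pigr. They were taken by symbol, with the brightest transcript cluster (the group of array probes assigned to a gene) where a gene had several. All 10 were measured, among 22180 genes in all, each by a single cluster that the probe table gives to no other gene.

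The study activated Hedgehog (Hh) signalling in stromal cells and asked how the overlying mucosa responds. In Ptch1ΔCol1 mice, which the labels call Hh activation (n = 4), a tamoxifen-inducible Cre under the Col1a2 promoter removes part of both alleles of Ptch1, the receptor that restrains Hh signalling. Their genotype was Col1a2CreER; Ptch1fl/fl; R26-LSL-tdTomato in replicates 1 and 2 and Col1a2CreER; Ptch1fl/fl in replicates 3 and 4. The controls (wt_ctrl, n = 4) carried no Cre in their labels: replicates 1 and 2 were Ptch1fl/+, and replicates 3 and 4 were R26-tdTomato. All mice, controls included, received tamoxifen at 5 mg per 25 g body weight by intraperitoneal injection. After 7 days 1 cm of whole colon was taken, starting 1.5 cm from the anus. The mice were of the C57BL/6 background, and the methods give a lower limit of age only for purchased wild-type mice. Each group had 3 females, and the male was replicate 3 in the Ptch1ΔCol1 group and replicate 2 in the control group. The Col1a2 promoter is active in connective tissue cells of many organs, so after systemic tamoxifen the deletion was not limited to the colon, and none of it was directed at the epithelium that makes most of the proteins described here. No group carried Cre without the floxed Ptch1 alleles, so the effects of Cre and of Ptch1 loss cannot be told apart.

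As background, the epithelium adjusts many of these genes to the bacteria it meets. Interleukins made by lymphocytes below it, interleukin-22 above all, act through STAT3, and bacterial products act through Toll-like receptors, MyD88 and NF-kB. Reg3b and Reg3g are the best known targets of both routes and are at a low level in the uninflamed mouse colon, whereas Pigr and Lypd8 are made abundantly by the resting colonic epithelium. Lcn2 and Nos2 are also made by leukocytes.

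Gene expression was measured on 8 Affymetrix arrays, 1 per mouse, and all values below are log2 signals as deposited, so a difference of 1 is a doubling of signal. The median signal of an array was 4.69 to 4.8. Over all clusters an array correlated with the 7 remaining ones at a mean r of 0.9845 to 0.9869, but Ptch1ΔCol1 replicate 3, the male of its group, stood apart at 0.9793. Gli1, a direct target of Hh signalling, was between 6.36 and 6.42 in the Ptch1ΔCol1 mice and between 4.81 and 5.20 in the controls, with no overlap. Ptch1 signal was between 9.19 and 9.63 against 8.48 to 8.77, but its transcript persists in these mice and does not report the deletion. Whole colon holds several tissues. The epithelial markers Epcam, Cdh1, Vil1, Krt8 and Krt19 were bright in every mouse, with a mean of 11.9 to 12.04 in the Ptch1ΔCol1 mice and 11.92 to 11.94 in the controls. The 7 goblet cell markers averaged 12.03 to 12.21 against 12.05 to 12.17, so neither list separated the groups. In bulk tissue fewer cells of a type and less RNA per cell cannot be told apart.

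None of the 10 genes passed the test at an adjusted p under 0.05 (limma with Benjamini-Hochberg adjustment over all genes), a threshold that 0.0271% of all genes passed. The median log2 fold change of the 10 was 0.011, beside -0.01 over all genes, with 6 of them higher and 4 lower in Ptch1ΔCol1 mice. Reg4 alone had an unadjusted p under 0.05, a share of 1 in 10 beside 9.22% of all genes. Reg4 was also the only member whose groups did not overlap, in the lower direction, where 2.9% of all genes had no overlap. In the higher direction it was 0 of 10, beside 2.47% of all genes. With 10 genes, counts of 0 and 1 lie near these background shares and set the list apart in neither direction.

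**Figure D1:**
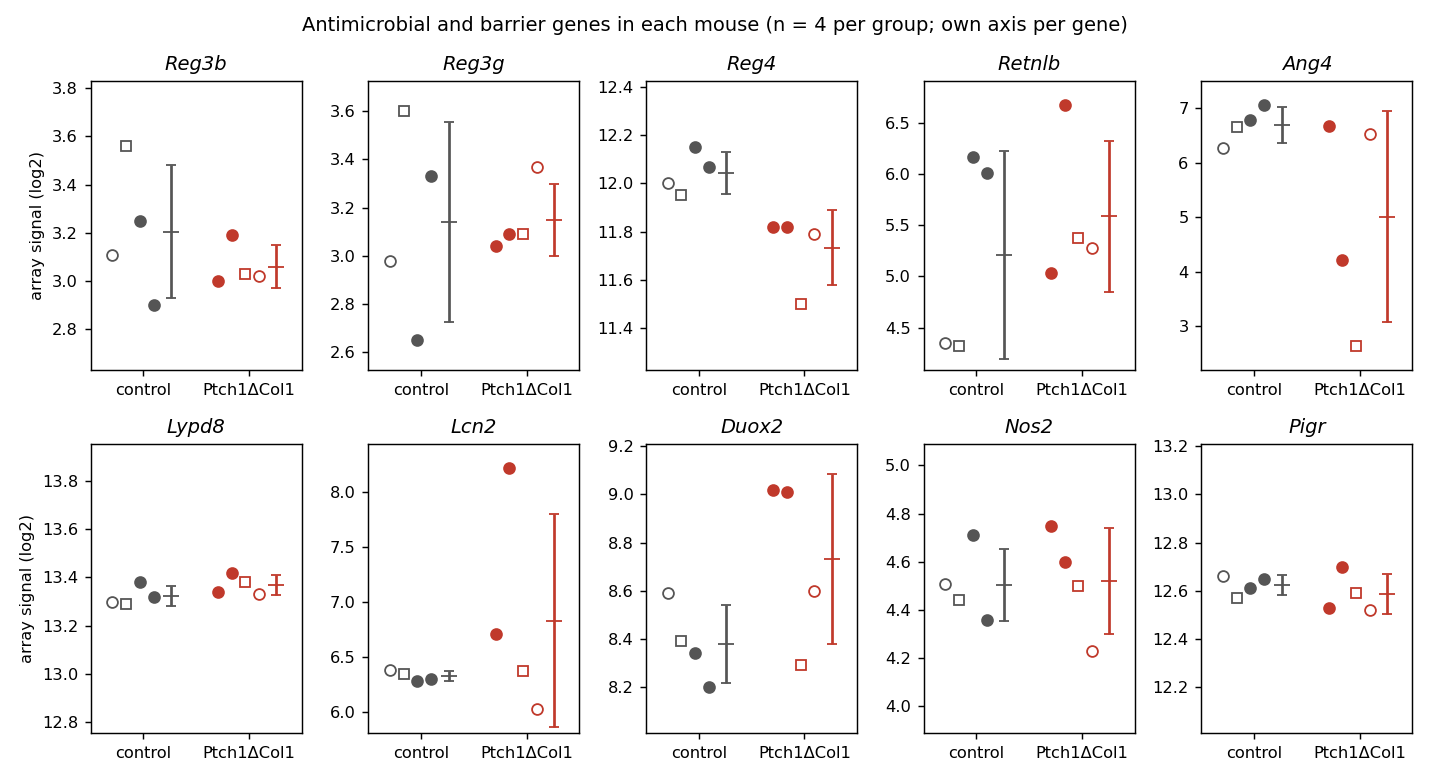
Log2 array signal of the 10 genes in each mouse, controls in grey and Ptch1ΔCol1 mice in red, with squares for males, filled symbols for carriers of the tdTomato reporter, and the mean ± SD of each group (n = 4) beside the points. Axes differ between genes and span at least 1.2 log2 units. Reg4 was lower in every Ptch1ΔCol1 mouse than in any control, and Ang4, Lcn2 and Retnlb differed most between mice of a group.

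The genes differed far more in how they varied between mice. Pooled over both groups, the within-group SDs of Ang4, Retnlb and Lcn2 were among the largest on the array. Only 18, 64 and 123 of the 22180 genes, each count including the gene itself, had a pooled SD at least as large. Lypd8 and Pigr stood at the other end, at percentiles 0.541 and 4.03 of that SD. For Ang4 and Lcn2 the spread lay mainly in the Ptch1ΔCol1 mice, with SDs of 1.94 and 0.97, beside 0.32 and 0.05 in the controls. Spread varies with signal on these arrays and is lowest for bright genes, so each gene was also set against genes of similar signal (the same decile of mean signal). There Ang4 was at percentile 99.9, Retnlb at 99.6, Lcn2 at 98.9 and Duox2 at 94.9, and Lypd8 at 3.2.

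**Figure D2:**
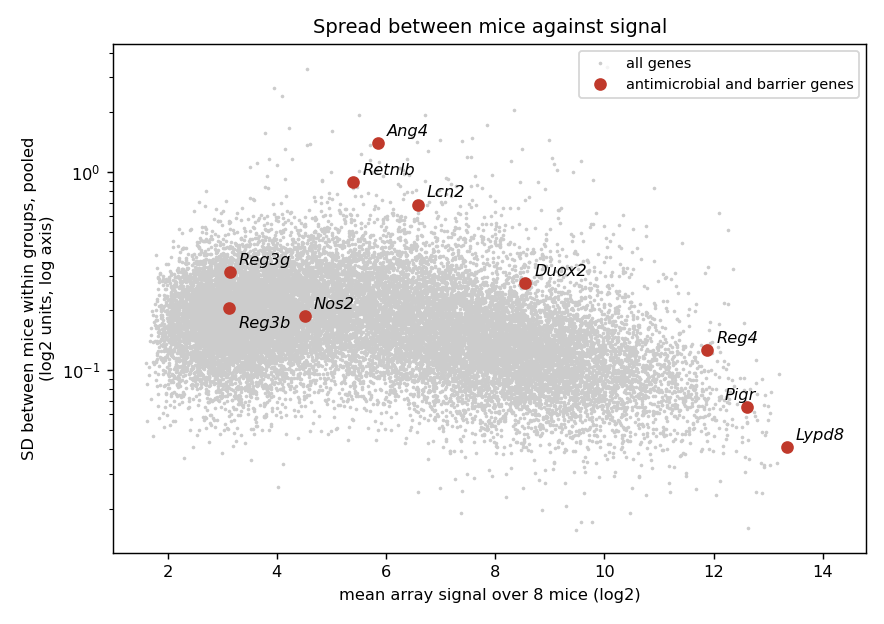
SD between mice within groups, pooled over both groups (vertical, log2 units on a log axis), against the mean log2 signal over the 8 mice (horizontal) for all 22180 genes in grey and the 10 antimicrobial and barrier genes in red. Ang4 (1.39), Retnlb (0.88) and Lcn2 (0.68) lie at the upper edge of the cloud and Lypd8 (0.04) near its lower edge.

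Reg3b and Reg3g, secreted C-type lectins that bind bacterial cell walls, were dim. Reg3b was at 3.0, 3.19, 3.03 and 3.02 in Ptch1ΔCol1 replicates 1 to 4 and at 3.11, 3.56, 3.25 and 2.90 in control replicates 1 to 4. Reg3g was at 3.04, 3.09, 3.09 and 3.37 against 2.98, 3.60, 2.65 and 3.33. For both genes the groups overlapped, the highest value was that of control replicate 2, the male, and the controls spread more widely than the Ptch1ΔCol1 mice. With mean signals at percentiles 15.9 and 16.0 of all genes, these values lie where many genes that are not expressed are read, so the small differences say little about transcript. Between the groups the log2 fold change was -0.15 for Reg3b (95% interval -0.44 to 0.15, adjusted p = 0.763 from limma) and 0.01 for Reg3g (-0.41 to 0.42, adjusted p = 0.995). A change of 1 log2 unit in signal in either direction thus lay outside both intervals.

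Reg3b and Reg3g belong to 1 gene cluster on mouse chromosome 6. Their promoters, shown because the genes were dim together, in RefSeq (GRCm38.p6, 250 bases before to 50 after the annotated start) are identical at 214 of 310 aligned columns, or 69.0%. The stretch around the TATA motif (TATAAA, in capitals) is shown for both, 120 bases each, from chr6:78370785-78370904 on the plus strand and chr6:78468853-78468972 on the minus strand.
Reg3b: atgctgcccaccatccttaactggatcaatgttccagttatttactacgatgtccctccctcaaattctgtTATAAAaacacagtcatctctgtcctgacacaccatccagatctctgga
Reg3g: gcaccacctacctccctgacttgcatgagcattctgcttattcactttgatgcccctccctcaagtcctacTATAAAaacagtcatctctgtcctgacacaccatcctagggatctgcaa
The motif shown begins at -29 in Reg3b and at -27 in Reg3g. Reg3g also held a match on the opposite strand, TTTATA at -161, outside the stretch shown. Of all 27025 promoters in the table, 14.2% hold the motif on either strand. Promoters were present in the table for 8 of the 10 genes, all but Retnlb and Nos2. Among those 8, the Gli core motif GACCACCCA was found in 0 (0.244% of all promoters hold it on either strand), the STAT motif TTCNNNGAA in Reg3b, Ang4 and Pigr (8.47% of all) and the NF-kB consensus in Reg3g (4.35% of all). These are matches of letters only, in a short window.

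The other members of that cluster were equally dim. Reg1, Reg2, Reg3a and Reg3d, related lectins made mainly in pancreas and small intestine, were all between 1.94 and 3.57 over the 8 mice. None passed the test, and their log2 fold changes lay between 0.00 for Reg1 and 0.15 for Reg3d (adjusted p = 0.605 from limma). Reg3d was the member nearest to a separation, with 2.54 to 2.72 in Ptch1ΔCol1 mice and 2.33 to 2.54 in controls.

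Reg4, a lectin of the same family encoded on chromosome 3, was among the brightest genes, at percentile 99.5 of mean signal. In the mouse colon it marks deep crypt secretory cells, which lie next to the stem cells at the crypt base. Reg4 was at 11.82, 11.82, 11.50 and 11.79 in Ptch1ΔCol1 replicates 1 to 4 and at 12.00, 11.95, 12.15 and 12.07 in control replicates 1 to 4. All 4 Ptch1ΔCol1 mice lay below all 4 controls, with replicate 3 the lowest. The log2 fold change was -0.31 ± 0.10 (SE, 95% interval -0.53 to -0.09), a 1.24-fold lower signal. It did not pass the adjusted threshold (adjusted p = 0.445 from limma, unadjusted p = 0.0100, rank 499 of 22180 genes by p), and the two-sided exact permutation test gave 0.0286, the smallest p that 70 relabellings allow. Without replicate 3 the log2 fold change was -0.23 (adjusted p = 0.365), and over all alternatives it stayed between -0.38 and -0.23. The goblet cell markers did not share this order: Muc2, the main mucin, was at 12.85 to 13.03 against 12.81 to 12.95, and Tff3, a trefoil peptide secreted with mucin, was at 11.15 to 11.48 against 11.32 to 11.55. Spink4 and Agr2, also secretory cell products, overlapped between the groups as well.

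The promoter of Reg4 is shown because this was the gene whose groups did not overlap (RefSeq, GRCm38.p6, chr3:98221906-98222205, plus strand). It held none of the Gli, STAT, NF-kB and TATA motifs that were searched, so it has no capitals.
Reg4: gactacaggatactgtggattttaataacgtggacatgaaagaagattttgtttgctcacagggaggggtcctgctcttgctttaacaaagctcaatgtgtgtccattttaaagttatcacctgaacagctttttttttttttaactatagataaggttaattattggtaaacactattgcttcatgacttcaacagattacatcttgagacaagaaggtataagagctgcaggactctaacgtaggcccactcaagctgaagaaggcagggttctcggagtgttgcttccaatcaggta

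Ang4 encodes an angiogenin-family ribonuclease that kills bacteria and is secreted by Paneth cells of the small intestine and goblet cells of the colon. It had the largest difference of the 10 genes and the largest spread. Ang4 was at 6.67, 4.22, 2.64 and 6.53 in Ptch1ΔCol1 replicates 1 to 4 and at 6.28, 6.66, 6.79 and 7.06 in control replicates 1 to 4. Replicates 2 and 3 of the Ptch1ΔCol1 group lay far below every control, whereas replicates 1 and 4 lay within the control range, so the groups overlapped. The highest Ptch1ΔCol1 signal was 16.3-fold above the lowest, against 1.72-fold among the controls, and the former is a ratio of signals only, since the lowest is not shown to be above background. The SD was 1.94 in the Ptch1ΔCol1 mice and 0.32 in the controls (n = 4 each).

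The log2 fold change of Ang4 was -1.68 ± 0.78 (SE, 95% interval -3.42 to 0.05), and it did not pass (adjusted p = 0.556 from limma, two-sided exact permutation p = 0.171). Single mice decided its size: it was -0.89 without Ptch1ΔCol1 replicate 3 and -2.23 without replicate 1, with adjusted p of 0.562 and 0.404. Replicate 3 is the male of its group and the array that stood apart. The control male was at 6.66, within the range of the control females. The difference in log2 fold change between males and females was -3.12 (95% interval -5.84 to -0.40, unadjusted p = 0.0296, adjusted p = 0.353 from limma), and with 1 male in each group sex and single mouse cannot be told apart. In females alone the log2 fold change was -0.90, with replicate 2, a female, still at 4.22.

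In the same replicate 3, all 6 macrophage markers (Adgre1, Cd68, Csf1r, Mrc1, Cx3cr1, Itgam) were at the lowest value of the 8 mice, with a mean of 6.68 there and 7.34 to 7.65 in the controls. Ptch1ΔCol1 replicate 2, the other mouse low in Ang4, had a macrophage mean of 7.59, within the control range. Whether the low macrophage markers have a part in the Ang4 value of replicate 3 was not tested. The goblet cell markers of replicates 2 and 3 averaged 12.13 and 12.03, beside 12.05 to 12.17 in the controls. The 2.64 of replicate 3 lies within the range of Reg3a, 2.33 to 3.15, a gene that is dim in all 8 mice. Ang4 belongs to a family of similar ribonuclease genes, and the deposited values do not show how far its probes separate them.

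The promoter of Ang4, the most variable of the 10 genes, is shown with its STAT motif match TTCNNNGAA in capitals, which begins at -192 (RefSeq, GRCm38.p6, chr14:51773541-51773840, minus strand).
Ang4: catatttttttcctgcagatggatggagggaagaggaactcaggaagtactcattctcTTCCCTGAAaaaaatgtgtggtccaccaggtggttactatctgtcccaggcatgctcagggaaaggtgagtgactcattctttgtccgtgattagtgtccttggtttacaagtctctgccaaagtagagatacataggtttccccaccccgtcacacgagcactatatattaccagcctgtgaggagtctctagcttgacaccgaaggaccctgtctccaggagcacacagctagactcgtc

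The genes whose values followed Ang4 most closely over the 8 mice, after removal of the group means, were Rapgefl1 (r = 0.996), Cenph (0.993), Gli2 (0.989), Tle6 (0.988) and Fscn1 (0.985). Gli2, a transcription factor of the Hh pathway, was at 6.45, 5.85, 5.50 and 6.31 in Ptch1ΔCol1 replicates 1 to 4 and between 5.55 and 5.71 in the controls. These 5 genes were chosen among 22180 for their likeness, and the correlations rest mainly on the wide spread of the Ptch1ΔCol1 mice, so they are given as a description.

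Retnlb, also known as RELMβ, is a small cysteine-rich protein that goblet cells secrete in response to bacteria and to interleukin-13, and it is active against bacteria. Retnlb was at 5.03, 6.67, 5.37 and 5.28 in Ptch1ΔCol1 replicates 1 to 4 and at 4.35, 4.32, 6.16 and 6.01 in control replicates 1 to 4. The controls fell apart by genotype: the Ptch1fl/+ controls were both near 4.3, below every Ptch1ΔCol1 mouse, and both R26-tdTomato controls were at 6 or above, higher than all Ptch1ΔCol1 mice but replicate 2. The means of these control pairs, 4.34 and 6.09, differed by 1.75 log2 units, and only 8 of the 22180 genes (0.0361%) had a difference that large between the same pairs. This split was noticed in the values, and with 2 mice of each genotype it was not tested.

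Against all 4 controls the log2 fold change of Retnlb was 0.38 ± 0.50 (SE, 95% interval -0.73 to 1.49, adjusted p = 0.845 from limma). Its direction depended on the control used. It was 1.25 against the Ptch1fl/+ controls alone (unadjusted p = 0.0161, adjusted p = 0.974 from limma) and -0.50 against the R26-tdTomato controls alone (adjusted p = 0.897). The control pairs had already been seen to be low and high, so these p-values do not measure a difference from controls. Without Ptch1ΔCol1 replicate 2 the log2 fold change was 0.02, and without a control it ranged from 0.08 (replicate 2 left out) to 0.69 (replicate 3 left out). Among the Ptch1ΔCol1 mice, carriers of the reporter averaged 5.85 and the others 5.33, and the reporter alone does not separate them as it does the controls, since replicate 1, a carrier, was the lowest. Genotype and single mice cannot be told apart with 2 controls of each kind.

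The genes most like Retnlb over the 8 mice were Ifna1 (r = 0.992), Ctrb1 (0.982), Ankrd9 (0.979), Tmprss3 (0.972) and Gml (0.951), again as a description of genes picked for likeness. Retnla and Retn are secreted proteins of the same family, made by macrophages and fat cells. Retnla was at 6.36, 7.90, 7.55 and 5.62 in Ptch1ΔCol1 replicates 1 to 4 and at 6.43, 5.53, 5.59 and 5.06 in control replicates 1 to 4. It was higher in 2 of the Ptch1ΔCol1 mice than in any control, with a log2 fold change of 1.21 ± 0.48 (SE, adjusted p = 0.513 from limma, unadjusted p = 0.0303). Retn was at 9.34, 9.49, 7.74 and 8.84 in Ptch1ΔCol1 replicates 1 to 4 and at 9.09, 8.6, 6.89 and 7.62 in control replicates 1 to 4, with a log2 fold change of 0.80 (adjusted p = 0.647). Retn also separated the controls by genotype, but opposite to Retnlb: its mean in the R26-tdTomato controls was lower than in the Ptch1fl/+ controls, a difference of -1.59 that was not tested. Retnla showed no such separation by genotype beyond its spread, with 6.43 and 5.53 in the Ptch1fl/+ controls and 5.59 and 5.06 in the R26-tdTomato controls.

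Lypd8, a membrane-anchored protein shed into the colonic lumen, where it binds the flagella of bacteria, was the brightest of all 22180 genes by mean signal. Lypd8 was at 13.34, 13.42, 13.38 and 13.33 in Ptch1ΔCol1 replicates 1 to 4 and at 13.30, 13.29, 13.38 and 13.32 in control replicates 1 to 4. All 8 mice lay within a narrow band and the groups overlapped. Their difference, as a log2 fold change, was 0.04 (95% interval -0.11 to 0.20, adjusted p = 0.876 from limma). Pigr, which carries immunoglobulin A and M across the epithelium, was likewise even, at 12.53, 12.70, 12.59 and 12.52 against 12.66, 12.57, 12.61 and 12.65. Its log2 fold change was -0.04 (95% interval -0.21 to 0.13, adjusted p = 0.909). For both genes the interval leaves no room for a change of signal by 0.3 log2 units. Signals this high can be near the upper limit of an array, so a narrow spread need not be a narrow spread of transcript, which was not tested.

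Jchain encodes the chain that joins the immunoglobulins Pigr carries, and unlike Pigr it varied: it was at 10.88, 10.51, 10.05 and 10.30 in Ptch1ΔCol1 replicates 1 to 4 and at 9.36, 10.94, 10.27 and 9.77 in control replicates 1 to 4. The groups overlapped, with a log2 fold change of 0.35 ± 0.31 (SE, adjusted p = 0.756 from limma). The plasma cell markers, Jchain among them, averaged 6.63 to 7.35 in Ptch1ΔCol1 mice and 6.57 to 7.37 in controls.

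Lcn2 binds bacterial siderophores and so withholds iron, and it is made by stressed epithelium and stored in neutrophil granules. Lcn2 was at 6.71, 8.22, 6.37 and 6.03 in Ptch1ΔCol1 replicates 1 to 4 and at 6.38, 6.35, 6.28 and 6.30 in control replicates 1 to 4. The controls were within 0.10 log2 units of each other, while Ptch1ΔCol1 replicate 2 was far above all other mice and replicate 4 below all of them. The highest Ptch1ΔCol1 mouse was 4.56-fold above the lowest, against 1.07-fold among the controls. The log2 fold change was 0.51 ± 0.39 (SE, 95% interval -0.36 to 1.37, adjusted p = 0.711 from limma, two-sided exact permutation p = 0.343), and it was 0.04 without replicate 2.

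In Ptch1ΔCol1 replicate 2 several genes of neutrophil proteins stood high together with Lcn2. Of the 7 neutrophil markers, 4 had their highest value there. S100a8, a subunit of calprotectin, was at 6.06 in that mouse and between 3.30 and 3.93 in the others, and its partner S100a9 was at 5.06 beside 3.07 to 4.06. The granule protease Elane was at 5.34 beside 2.87 to 3.37, and the peroxidase Mpo at 5.02 beside 3.41 to 3.80. The granule proteins Ltf and Camp, which the list of other antimicrobial proteins holds, were at 7.02 (others 3.59 to 4.34) and 4.84 (others 2.65 to 2.98), and Chil3 was at 7.69 (others 3.40 to 4.89). These genes were singled out after their values were seen.

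The receptor genes of mature neutrophils did not follow: Csf3r was at 4.74 in replicate 2 and 4.57 to 5.18 in the other mice, and Cxcr2 at 4.36 beside 3.84 to 4.55. Ly6g was bright in all 8 mice, between 10.96 and 11.90, and highest in Ptch1ΔCol1 replicate 3. At percentile 98.7 of mean signal it was far brighter than the other neutrophil markers. The deposited values do not show whether its probes read Ly6g alone, so it is a doubtful marker here. The mean of the 7 markers, Ly6g included, was 6.03 in replicate 2, 4.77 at the lowest in the group and 4.8 to 5.13 in the controls. The part of neutrophils in the Lcn2 value of that mouse was not tested. The genes most like Lcn2 over the 8 mice were Gm7361 (r = 0.990), Ndufa2 (0.987), Gm10536 (0.980), Retreg1 (0.979) and Mir743 (0.970).

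**Figure D3:**
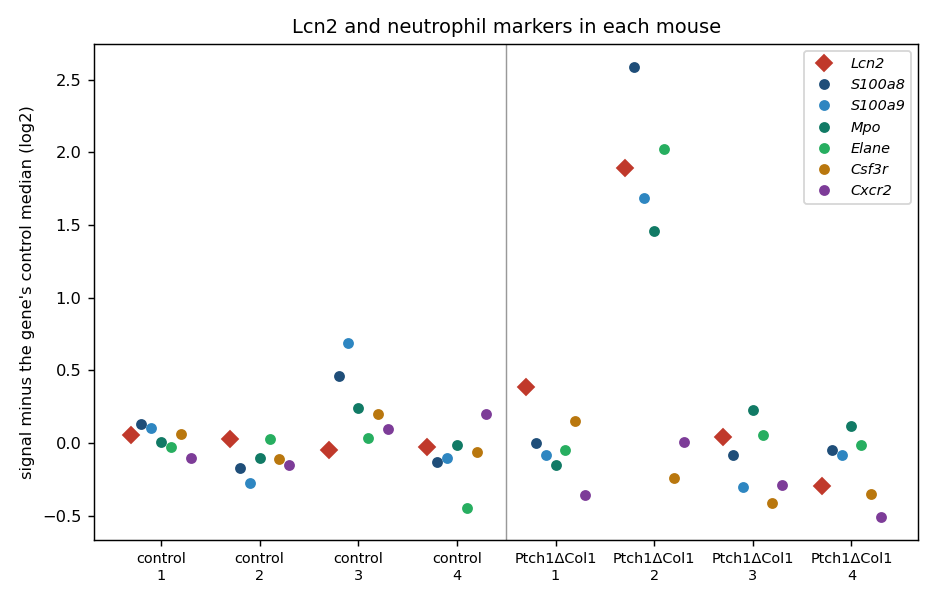
Log2 signal of Lcn2 (diamonds) and of 6 neutrophil markers (circles) in each of the 8 mice, each gene set against its median over the 4 controls, with points of a mouse spread sideways for legibility. In Ptch1ΔCol1 replicate 2 Lcn2, S100a8, S100a9, Mpo and Elane stand high together, while Csf3r and Cxcr2 lie within their range in the other mice. Ly6g, the remaining marker of the list, is not drawn. It was highest in Ptch1ΔCol1 replicate 3, at 11.90, beside 11.62 in replicate 2.

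Duox2, an oxidase at the apical membrane that releases hydrogen peroxide, was at 9.02, 9.01, 8.29 and 8.60 in Ptch1ΔCol1 replicates 1 to 4 and at 8.59, 8.39, 8.34 and 8.20 in control replicates 1 to 4. Replicates 1 and 2 were above every control, replicate 4 was level with the highest control and replicate 3 lay within the control range. The log2 fold change was 0.35 ± 0.17 (SE, 95% interval -0.02 to 0.72, adjusted p = 0.568 from limma, unadjusted p = 0.0627, two-sided exact permutation p = 0.171). Over all alternatives it lay between 0.24 and 0.50, and it was 0.50 without replicate 3 (adjusted p = 0.286).

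The high Duox2 values were those of the Ptch1ΔCol1 mice that carried the tdTomato reporter, which averaged 9.02 against 8.45 in those without it. Among the controls the order was the other way, 8.27 with and 8.49 without the reporter. The difference in log2 fold change between carriers and others was 0.79 (95% interval 0.31 to 1.27, unadjusted p = 0.00550), but it failed the adjustment over all genes (adjusted p = 0.901 from limma), as every gene did in that comparison. The same difference was 1.34 for Lcn2 (95% interval -0.0018 to 2.68, unadjusted p = 0.0502, adjusted p = 0.901 from limma). The highest Lcn2 value was also in a carrier, replicate 2. With 2 mice a cell, the reporter and single mice cannot be told apart, nor, among the controls, the reporter and the floxed Ptch1 allele, which only the controls without the reporter carried.

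The other oxidase genes differed from Duox2. Duox1, the close homologue best known from thyroid and airway, was dim at 4.00 to 4.26 over the 8 mice, and Duoxa1, a maturation factor of the dual oxidases, was dim at 3.0 to 3.59. Nox1, the superoxide-producing oxidase of colonic epithelium, was at 8.93, 9.11, 8.36 and 9.10 against 9.0, 9.12, 9.0 and 9.31, with a log2 fold change of -0.23 ± 0.16 (SE, adjusted p = 0.690 from limma). Its activator Noxa1 was at 7.82, 7.93, 7.44 and 7.16 against 7.78, 7.80, 7.74 and 7.83, where replicates 3 and 4 lay below all controls and the log2 fold change was -0.20 (adjusted p = 0.718).

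Nos2 makes nitric oxide, which is toxic to bacteria, and it was dim, at percentile 38.2 of mean signal. Nos2 was at 4.75, 4.6, 4.50 and 4.23 in Ptch1ΔCol1 replicates 1 to 4 and at 4.51, 4.44, 4.71 and 4.36 in control replicates 1 to 4, and the groups overlapped. Its log2 fold change was 0.01 (95% interval -0.26 to 0.29, adjusted p = 0.981 from limma). Arg1, an enzyme that uses the same substrate, arginine, spread from 4.45 to 8.16 in Ptch1ΔCol1 mice and from 5.98 to 7.64 in controls, with its lowest value in replicate 3, where the macrophage markers were lowest too. The other synthases, Nos1 of neurons and Nos3 of endothelium, were between 6.77 and 7.03 and between 5.40 and 5.91, and neither passed the test.

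**Figure D4:**
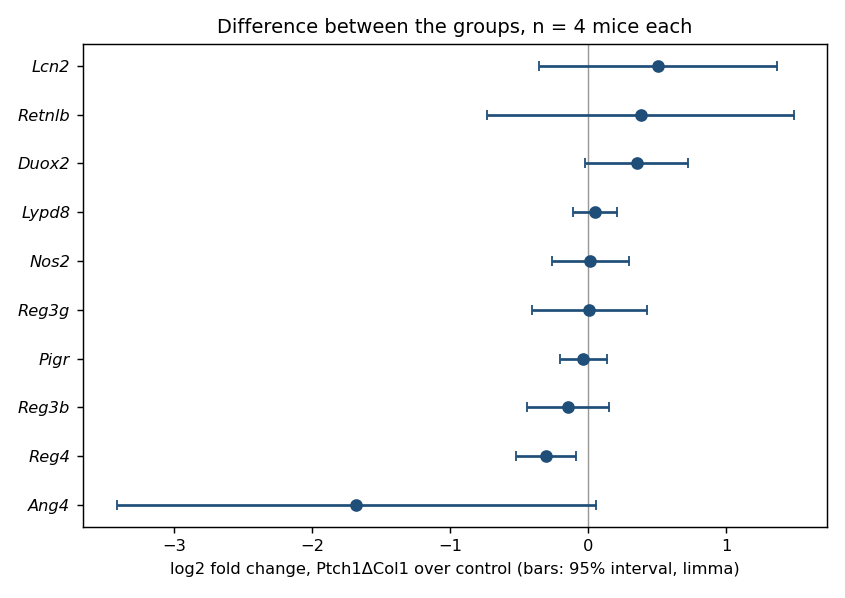
Log2 fold change of each of the 10 genes in Ptch1ΔCol1 mice over controls (points) with the 95% interval from limma (bars), n = 4 mice per group. The interval of Reg4 alone leaves out 0, at -0.53 to -0.09, and none passed the adjusted threshold.

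The 17 measured partners and relatives of these genes, most of them named above, were as little changed as a list: 0 passed, 11 were higher and 6 lower, 1 had an unadjusted p under 0.05 (9.22% of all genes did) and the median log2 fold change was 0.02. Slc22a17 and Lrp2, receptors that take up Lcn2, were between 5.59 and 5.93 and between 4.07 and 5.26 over the 8 mice.

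Among the 22 cytokines and receptors known to induce such genes, 0 passed the adjusted threshold. An unadjusted p under 0.05 from limma was found for 0 of them, beside 9.22% of all genes. In direction, 10 were higher and 12 lower, with a median log2 fold change of -0.03. Il22 and Il17a, the cytokines best known to induce the Reg3 genes, were dim: Il22 lay between 1.90 and 2.34 and Il17a between 2.51 and 3.09. Il22ra1, the signalling receptor of interleukin-22 on epithelium, was bright at 10.33 to 10.53 against 10.16 to 10.36, with a log2 fold change of 0.18 (adjusted p = 0.562 from limma). Il22ra2, a secreted receptor that binds and neutralises interleukin-22, was at 5.21, 4.8, 3.97 and 5.70 in Ptch1ΔCol1 replicates 1 to 4 and at 5.27, 5.90, 5.48 and 5.74 in control replicates 1 to 4. Its lowest value was in replicate 3, as for Ang4, and its log2 fold change was -0.68 ± 0.31 (SE, adjusted p = 0.561). Other cytokines were brighter, with Tnf at 5.57 to 7.03 over the 8 mice. Il18, a cytokine stored in epithelium, was bright at 9.82 to 10.04 against 9.62 to 9.96 (log2 fold change 0.15).

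Of the 19 measured sensors and signalling genes, 0 passed and 2 had an unadjusted p under 0.05 (9.22% of all genes did), with 13 higher, 6 lower and a median of 0.025. Nfkbiz, an epithelial regulator of NF-kB targets, was at 7.55, 7.83, 7.70 and 7.45 in Ptch1ΔCol1 replicates 1 to 4 and at 7.26, 7.42, 7.09 and 7.30 in control replicates 1 to 4. All Ptch1ΔCol1 mice lay above all controls, by a narrow gap (2.47% of all genes had no overlap in that direction), with a log2 fold change of 0.37 ± 0.11 (SE, adjusted p = 0.418 from limma). Tlr9, a receptor for bacterial DNA, was at 4.65 to 5.75 against 5.55 to 6.09 (log2 fold change -0.55, adjusted p = 0.538), with replicate 3 the lowest. Socs3, a feedback inhibitor induced by STAT3, was at 5.52 to 6.17 against 5.04 to 5.84 (log2 fold change 0.37, adjusted p = 0.596).

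Of the 23 other antimicrobial genes measured, 0 passed, 5 had an unadjusted p under 0.05, 13 were higher and 10 lower, with a median of 0.045. Over all genes 9.22% had such an unadjusted p. The groups did not overlap for 4 of the 23, 1 in the higher and 3 in the lower direction, beside 2.47% and 2.9% of all genes. Dmbt1, a secreted mucosal protein that binds bacteria, was at 11.62, 11.70, 11.77 and 11.62 in Ptch1ΔCol1 replicates 1 to 4 and at 11.46, 11.28, 11.36 and 11.42 in control replicates 1 to 4, with a log2 fold change of 0.30 ± 0.08 (SE, adjusted p = 0.383 from limma). Wfdc18, of a family of small protease inhibitors, was at 5.52 to 6.10 against 6.36 to 6.49 (log2 fold change -0.51, standard error 0.12, adjusted p = 0.347). Pglyrp2, an enzyme that cleaves bacterial peptidoglycan, was dim at 3.55 to 4.20 against 4.23 to 5.18 (log2 fold change -0.81, standard error 0.21, adjusted p = 0.357).

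Lyz1, the lysozyme of Paneth cells, was at 6.59, 6.64, 7.78 and 7.62 in Ptch1ΔCol1 replicates 1 to 4 and at 7.84, 8.12, 7.84 and 7.93 in control replicates 1 to 4, with a log2 fold change of -0.78 ± 0.26 (SE, adjusted p = 0.452 from limma). The Ptch1ΔCol1 mice fell into the reporter carriers, more than 1 log2 unit below the controls, and the others, just below them. That order differs from Ang4, where replicates 2 and 3 were the low mice. The split of Lyz1 by reporter was noticed in the values and was not tested. The controls with and without the reporter did not show it, and reporter and single mice cannot be told apart. The other Paneth cell markers were dim, as the colon has few such cells: Defa24 was between 3.25 and 3.61 in all 8 mice, and Mmp7 was below 3.5 in all but Ptch1ΔCol1 replicate 3, where it was 4.84. Lyz1 and its macrophage homologue Lyz2 are near-identical, so the separation of their probes is uncertain.

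Of the markers of surface colonocytes, the mature cells that make Lypd8, none passed, and the groups overlapped for each. All 6 were higher in Ptch1ΔCol1 mice, where 10438 of all 22180 genes were higher. The median log2 fold change of the 6 was 0.073, and 1 had an unadjusted p under 0.05, beside 9.22% of all genes. For Aqp8, Slc26a3, Car1 and Car4 the log2 fold changes were small, at 0.03, 0.04, 0.06 and 0.08. Krt20, a keratin of differentiated cells, was at 11.61 to 12.00 against 11.53 to 11.66 (log2 fold change 0.27, adjusted p = 0.487 from limma), and Guca2a, a secreted peptide, at 11.69 to 12.12 against 11.37 to 11.86 (0.26, adjusted p = 0.595). Of the exocrine pancreas genes, Prss2, Ctrb1 and Cpa1 were at or below 4.74 in every mouse, and Cela1 was at 9.78 to 10.35.

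Over the 8 mice no correlation between the 10 genes passed the test, and with 8 mice all but strong correlations can be missed. Of their 45 pairs, 0 had a correlation with an adjusted p under 0.05 (two-sided exact permutation test, Benjamini-Hochberg over the 45 pairs, lowest adjusted p = 0.376 for Pearson's r and 0.549 for Spearman's rho), and 4 had an unadjusted exact p under 0.05 for Pearson's r. Retnlb and Lypd8 gave r = 0.817 (exact p = 0.0152) and rho = 0.814 (exact p = 0.0185), with r = 0.562 when the 2 mice farthest from the median of Retnlb were left out. Reg4 and Ang4 gave r = 0.807 (exact p = 0.0167) and rho = 0.719 (exact p = 0.0519), with r = 0.444 without the 2 farthest mice, so that relation rests in part on them. Lcn2 and Duox2 gave r = 0.680 (exact permutation p = 0.0290) and rho = 0.5 (exact p = 0.216), and r turned to -0.429 without the 2 farthest mice. Reg3g and Nos2 ran opposite to each other, with r = -0.716 (exact p = 0.0444), rho = -0.790 (exact p = 0.0244) and r = -0.822 without the 2 farthest mice, at signals where both are dim. The genes with the widest spread shared some of their extreme mice and not others: Lcn2 and Retnlb were both highest in Ptch1ΔCol1 replicate 2, where Ang4 was second lowest, while Ang4 was lowest in replicate 3 and Retnlb in the Ptch1fl/+ controls.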

How the data were processed

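RNA from whole colon of 8 mice was hybridised to Affymetrix Mouse Gene ST 2.0 arrays. The values deposited by the authors are log2 signals, rounded to 2 decimals, that they obtained by robust multi-array averaging (median polish). The software and annotation used for this are not stated in the sources at hand.

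No further normalization was applied. Of 41345 transcript clusters, 23521 had 1 gene symbol (1820 had several and 16004 none, and were left out), and 23328 of these were matched by gene ID to RefSeq symbols (GRCm38.p6). The brightest cluster of each gene was kept, which left 22180 genes. Groups, sex and genotype came from the sample labels, and R26-tdTomato and R26-LSL-tdTomato were taken as the same reporter. A linear model with moderated variance (limma 3.58.1, R 4.3.3) gave fold changes, intervals and p-values and was tested on simulated data. The p-values were adjusted over all genes after Benjamini and Hochberg (threshold 0.05). For each gene the model takes the same variance in both groups, although the SDs of Ang4 and Lcn2 differed widely between them. Means of single genes were also compared by exact permutation of the mice (70 relabellings, two-sided). The number of mice limits the precision.

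The 10 genes and all lists were chosen with earlier results of these data known. Named genes were the 10, all their partners and relatives, the 3 genes of smallest p in each other list, the 5 genes most like each of the 3 most variable members, Gli1 and Ptch1. Other names were added after values were seen. Ang, Duoxa2, Noxo1, Ripk2, Nfkb1, Saa1, Sprr2a1, Gsdmc4 and Pnlip have no cluster of a single symbol and were not analysed. The alternatives changed the summary of clusters, removed genes under percentile 40 of signal, normalized by quantiles or centred on medians, used a trended robust prior or weights for arrays, added sex, reporter or replicate number to the model, and kept only the females, a single kind of control, or all mice but 1.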

Additional observations from a re-analysis of the deposited data

Results flagged for a closer look

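All 145 genes of the lists and of the likeness comparison were searched, in each group of 4 mice, for a mouse whose distance to its nearest neighbour took up nearly the whole range of the group (Dixon's criterion at the 95% level). It was met in 17 of the Ptch1ΔCol1 groups and 2 of the control groups, 19 of 290 in all. Chance flags about 1 in 20 groups, and genes that vary together are not independent.

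Of the 10 genes, Reg3b was at 3.19 in Ptch1ΔCol1 replicate 2 (the others at most 3.03), Reg3g at 3.37 in replicate 4 (3.04 to 3.09) and Reg4 at 11.5 in replicate 3 (11.79 to 11.82). In replicate 2 genes of neutrophil proteins stood apart: S100a8 at 6.06 (3.39 to 3.47), S100a9 at 5.06 (3.07 to 3.29), Elane at 5.34 (3.27 to 3.37), Ltf at 7.02 (3.71 to 3.96) and Camp at 4.84 (2.76 to 2.98). Ankrd9, a gene picked for its likeness to Retnlb, was at 7.09 there (6.92 to 6.94).

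Replicate 3 stood apart for Reg3d at 2.72 (2.54 to 2.57), Muc2 at 12.85 (the others at least 13), Mmp7 at 4.84 (2.99 to 3.03) and Ido1 at 5.27 (4.97 to 5.02). Replicate 1 stood apart for Gli1 at 6.42 (6.36 to 6.37), Guca2a at 12.12 (11.69 to 11.7), Il10rb at 9.78 (9.66 to 9.67) and Il17ra at 7.3 (6.95 to 6.98). Control replicate 4 stood apart for Saa2 at 3.44 (2.99 to 3.03) and Elane at 2.87 (3.29 to 3.35). The wide spreads of Ang4, Lcn2 and Retnlb did not meet this criterion.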

How the results depend on the processing

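None of the 10 genes passed under any of 21 alternatives, and the lowest adjusted p was 0.244. Of 207 values of their log2 fold changes, 195 kept their direction, 11 turned, in Reg3g, Retnlb and Nos2, and 1 was 0 (Nos2 in females alone). Reg3g turned to -0.0009 after quantile normalization and to -0.14 against the Ptch1fl/+ controls, and ranged from -0.16 to 0.16 with a mouse left out. Retnlb turned to -0.50 and Nos2 to -0.015 against the R26-tdTomato controls, and Nos2 ranged from -0.0617 to 0.11 with a mouse left out. Dim genes left out removed Reg3b, Reg3g and Nos2.

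The number of genes past the threshold, 6 (4 higher and 2 lower), became 12 (10 and 2) after median centring, 11 with a trended and robust prior, 1 with sex and 2 with the reporter in the model, 1 against the Ptch1fl/+ controls, 0 against the R26-tdTomato controls (unadjusted p from limma was under 0.05 for 606 higher and 703 lower genes), 3 in females alone, and from 1 to 12 with a mouse left out, highest without Ptch1ΔCol1 replicate 3. The causes were not tested. With the replicate block it was 3, but mice with the same number did not deviate together (correlations from -0.046 to 0.0252), so the numbers pair nothing. No alternative brought a correlation between members past the threshold.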
